A study of Homo sapiens with 9 samples.

Results

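Kinetochore and spindle checkpoint genes encode the proteins that mark the centromere, join it to spindle microtubules and hold back anaphase until every chromosome is attached. They were chosen by name, as 41 symbols of centromere, kinetochore, checkpoint and chromosomal passenger genes, with earlier results of these data known. Of these, 40 were measured by a probe set annotated to 1 gene only, among 18417 genes measured that way. The probe set for CENPA, the centromeric histone, carries more than 1 symbol and was not used here. BIRC5 and SKA2 had 2 probe sets each, and the one with the higher mean over all arrays stood for the gene.

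RNA was measured on Affymetrix human gene arrays in T47D, an established breast cancer line with luminal features and progesterone receptor. All cells carried the retroviral pHUSH vector with a hairpin against the ETS transcription factor ELF5, switched on by doxycycline, and were kept in puromycin. The groups were 10 nM ORG2058, a synthetic progestin, with 0.1 µg/ml doxycycline for 4 days; 10 nM ORG2058 alone for 4 days; and ethanol vehicle, for which the labels state no time. Each group had 3 arrays, each from cells pooled from 3 wells, and whether the line is 1 clone or a pool is not stated in the labels. No group analysed here received doxycycline alone, so effects of the drug and of the hairpin cannot be told apart. Time in culture cannot be told apart from progestin where the labels give none for vehicle.

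A kinetochore is built on nucleosomes that hold the histone variant CENP-A, which dedicated chaperones replenish. The constitutive centromere network sits on this chromatin and carries the KMN network, whose NDC80 complex grips microtubules. Checkpoint proteins gather at kinetochores without microtubules and restrain the anaphase-promoting complex, while the chromosomal passenger complex with Aurora B corrects wrong attachments. Most of these genes are transcribed mainly in G2 and mitosis, and many of their promoters hold a cell cycle genes homology region (CHR), bound by the repressive DREAM complex in resting cells and by B-MYB and FOXM1 in dividing ones. In RNA from whole cultures, fewer cells in G2 and mitosis and less RNA per cell cannot be told apart.

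Promoters were examined because most members moved together with progestin. Stretches are shown for NUF2, NDC80, BUB1 and SGO1, which fell far with progestin, and for SPC25 and MAD2L1, which had the lowest changes when doxycycline was added. NSL1 is shown as 1 of the 2 members not called with progestin. BUB3, the other, had no matched promoter entry, and nor had TTK, whose change with progestin was the lowest. Sequences are RefSeq's on GRCh38.p14, written 5′ to 3′ on the gene's strand from 150 bases before the start to 30 bases after it. Capitals mark the CHR motif (TTTGAA or TTCGAA) and the CCAAT box (CCAAT) on either strand. The stretches lie at NUF2 chr1:163321804-163321983 (plus strand), NDC80 chr18:2571407-2571586 (plus strand), BUB1 chr2:110678034-110678213 (minus strand), SGO1 chr3:20186177-20186356 (minus strand), SPC25 chr2:168890401-168890580 (minus strand), MAD2L1 chr4:120066819-120066998 (minus strand) and NSL1 chr1:212791748-212791927 (minus strand).
NUF2: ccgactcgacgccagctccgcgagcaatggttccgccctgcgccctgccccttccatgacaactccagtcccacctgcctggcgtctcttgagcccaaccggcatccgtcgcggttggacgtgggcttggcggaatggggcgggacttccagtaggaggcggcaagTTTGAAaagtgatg
NDC80: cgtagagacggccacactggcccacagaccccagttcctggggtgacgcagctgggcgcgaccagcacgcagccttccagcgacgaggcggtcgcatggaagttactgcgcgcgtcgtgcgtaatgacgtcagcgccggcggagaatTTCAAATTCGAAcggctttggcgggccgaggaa
BUB1: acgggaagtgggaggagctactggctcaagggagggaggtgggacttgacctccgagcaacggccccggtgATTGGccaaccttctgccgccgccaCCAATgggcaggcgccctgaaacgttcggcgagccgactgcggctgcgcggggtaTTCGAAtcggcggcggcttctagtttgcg
SGO1: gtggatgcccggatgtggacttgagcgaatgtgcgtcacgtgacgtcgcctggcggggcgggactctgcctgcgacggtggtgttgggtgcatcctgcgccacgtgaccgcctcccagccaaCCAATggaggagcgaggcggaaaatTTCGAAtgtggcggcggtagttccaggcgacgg
SPC25: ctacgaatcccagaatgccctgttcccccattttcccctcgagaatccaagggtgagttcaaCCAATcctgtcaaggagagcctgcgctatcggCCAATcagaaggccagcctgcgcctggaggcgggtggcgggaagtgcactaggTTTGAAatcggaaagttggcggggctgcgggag
MAD2L1: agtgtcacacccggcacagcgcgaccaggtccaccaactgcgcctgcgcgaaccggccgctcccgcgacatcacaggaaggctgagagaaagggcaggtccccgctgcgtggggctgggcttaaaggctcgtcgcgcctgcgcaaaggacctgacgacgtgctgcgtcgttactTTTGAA
NSL1: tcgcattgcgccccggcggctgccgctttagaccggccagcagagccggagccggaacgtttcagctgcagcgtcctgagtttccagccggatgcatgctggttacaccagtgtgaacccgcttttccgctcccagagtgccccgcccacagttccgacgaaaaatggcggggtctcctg
Each stretch except that of NSL1 holds a CHR motif, and NDC80 holds 2. The letters are absent from the NSL1 window. A CHR motif was also absent from the RefSeq promoters of SGO2, AURKB and CENPK, not shown here. These genes were called lower with progestin, with log2 changes of -1.65, -1.42 and -1.38.

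RefSeq promoter entries of 300 bases (250 before to 50 after the start) were matched by symbol for 32 of the 41 genes, some with more than 1 start. A CHR motif stood in 20 of the 37 entries (54.1%), against 16.4% of all 34794 entries. Of the 22 CHR matches, 20 lay within 45 bases of the start, and 1 overlapped another motif searched. The same ZWINT site is counted in both of that gene's overlapping entries. The share of all promoters with a match in that window was not computed. A CCAAT box stood in 25 of the 37 entries (67.6%), against 34.6% of all 34794 entries. The E2F letters TTTCCCGC or TTTGGCGC stood in 2 of the 37 entries (5.41%), against 2.27% of all 34794 entries. Among the 20039 entries of measured genes the shares were 13.6% for CHR, 34.5% for the CCAAT box and 2.85% for the E2F letters. All motifs named are matches of letters on both strands and were not tested as binding sites. The 18 measured genes with a CHR match had a median log2 change in progestin against vehicle of -1.58 (-1.92 to -0.90). The 13 with an entry but no match had a median of -1.24 (-1.65 to -0.23), so the ranges overlap. For the CCAAT box the order was reversed, with medians of -1.38 in 21 genes with a match and -1.46 in 10 without. Neither split was tested.

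Values are given on the log2 scale of the deposited table. The median of all named probe sets lay between 7.19 and 7.28 over the arrays. ELF5, the hairpin target, was at 10.44, 10.46 and 10.35 in progestin plus doxycycline, 11.31, 11.23 and 11.31 in progestin, and 10.26, 10.21 and 10.05 in vehicle. It was lower with doxycycline than with progestin alone (log2 change -0.87, SE 0.08, adjusted p = 0.029 in limma), a call lost in 10 of the 17 other fits, which include each fit lacking 1 array except the one lacking vehicle replicate 3. With doxycycline it was above vehicle on all 3 arrays (log2 change 0.24, SE 0.08, adjusted p = 0.0502 in limma), and 5 of the 17 other fits called it higher there. Some arrays stood slightly apart: vehicle replicate 3 was the lowest of its group for 34 of 40 members and progestin replicate 2 for 27, while progestin plus doxycycline replicate 2 was the highest for 33. The median deviation of members from their group mean on these arrays was -0.08, -0.08 and 0.10, in that order. Over all probe sets it went the same way, at -0.04, -0.03 and 0.04. The luminal keratins KRT8 and KRT18 were between 12.94 and 13.20 on all arrays. Of the 8 luminal markers listed, 3 were called lower in progestin against vehicle, namely PGR (-2.28), ESR1 (-0.50) and GATA3 (-0.51), and KRT19 (0.46) was called higher. The median of 13 stromal, endothelial and immune markers was 5.40 to 5.97 in progestin plus doxycycline, 5.88 to 6.11 in progestin and 5.67 to 5.81 in vehicle. Of these 13, 1 was called lower and 2 higher in progestin against vehicle, and their part in the results was not tested. Of all probe sets, 15.6% were called lower and 13.4% higher in that comparison.

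Progestin against vehicle asked what 4 days of the hormone did to these transcripts. Members of all 7 roles fell: 38 of 40 members were lower at an adjusted p under 0.05 and 0 higher, where 15.6% of the 21214 probe sets tested were called lower and 13.4% higher. At least a 2-fold fall was called for 30 members, against 2.75% of probe sets. The median log2 change of the 40 was -1.38, beside 0.02 over all probe sets. The arrays of the 2 groups did not overlap for 39 members, all lower with progestin, against 21.5% of probe sets. Each adjusted p comes from limma over all probe sets, and the smallest p that exact permutation of 3 and 3 arrays allows is 0.1.

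**Figure D1:**
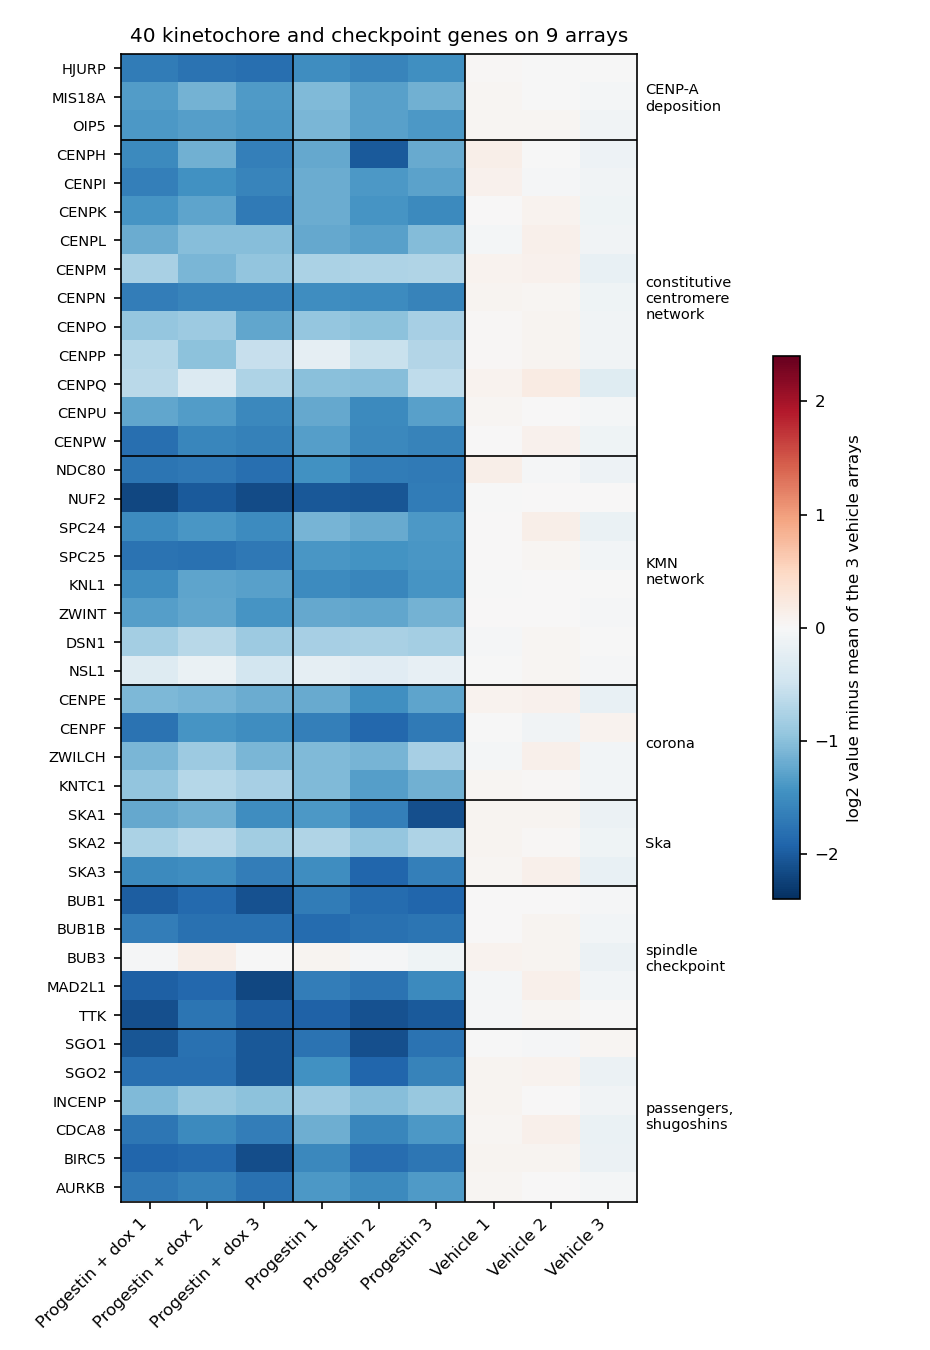
Log2 value of each of the 40 measured members (rows, by role) on each of the 9 arrays (columns) minus that gene's mean over the 3 vehicle arrays, with blue lower. Both progestin groups are blue in most rows, with member medians between -1.53 and -1.23 per array, while BUB3 and NSL1 stay pale.

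Among genes that load CENP-A, HJURP, the chaperone of that histone, was at 7.89, 7.81 and 7.90 with progestin, against 9.40, 9.37 and 9.37 with vehicle. The groups lie far apart relative to their spread, and the fall was 2.86-fold (log2 change -1.52, SE 0.07, adjusted p = 1.68e-06). OIP5, a subunit of the Mis18 complex that primes centromeres for loading, was at 6.98, 6.77 and 6.69 with progestin, against 8.12, 8.13 and 7.99 with vehicle (log2 change -1.26, SE 0.09, adjusted p = 2.02e-05). Its partner MIS18A fell by 1.18 on the log2 scale, so all 3 measured genes of this step were lower.

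All 11 genes of the constitutive centromere network fell, with a median of -1.28. CENPN, which reads the CENP-A nucleosome, was at 7.95, 7.93 and 7.84 with progestin, against 9.51, 9.50 and 9.34 with vehicle (log2 change -1.54, SE 0.07, adjusted p = 3.08e-06). CENPW, a histone-fold protein that pairs with CENP-T, was at 6.82, 6.59 and 6.53 with progestin, against 8.14, 8.24 and 8.03 with vehicle (log2 change -1.49, SE 0.11, adjusted p = 2.37e-05). For both genes the groups are clear of each other. CENPH, CENPI and CENPK, which join CENPM in a subcomplex, changed by -1.49, -1.28 and -1.38, and CENPM by -0.74. CENPL, the partner of CENPN, fell by 1.19. In the subcomplex of CENPO, CENPP, CENPQ and CENPU, the changes were -0.90, -0.49, -0.87 and -1.36. CENPP fell least (log2 change -0.49, SE 0.15, adjusted p = 0.0412), and 6 of the 9 fits lacking 1 array did not call it, with an adjusted p of up to 0.115. Those fits lacked vehicle replicate 1, 2 or 3, progestin replicate 2, progestin replicate 3, or replicate 1 of progestin plus doxycycline.

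In the KMN network 7 of 8 genes were called lower, with a median over the 8 of -1.32. NUF2, a subunit of the NDC80 complex, was at 7.55, 7.53 and 7.91 with progestin, against 9.58, 9.59 and 9.59 with vehicle. Progestin replicate 3 was the highest of its group and still far below all vehicle arrays, and the fall was 3.79-fold (log2 change -1.92, SE 0.11, adjusted p = 6.73e-06). NDC80, the microtubule-binding subunit, was at 6.86, 6.64 and 6.61 with progestin, against 8.46, 8.30 and 8.21 with vehicle (log2 change -1.61, SE 0.10, adjusted p = 8.95e-06). SPC24 and SPC25, which anchor the same complex, fell by 1.24 and 1.40. The 95% intervals of NUF2 (-2.17 to -1.67) and SPC25 (-1.55 to -1.25) do not overlap, though the difference between subunits was not tested. KNL1, the scaffold that recruits BUB1, fell 2.82-fold, and its binding partner ZWINT 2.31-fold.

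DSN1 and NSL1 belong to the Mis12 complex, which links the network to the centromere. DSN1 fell by 0.80 (adjusted p = 9.33e-05). NSL1 was at 8.97, 8.91 and 8.98 with progestin, against 9.17, 9.22 and 9.14 with vehicle. The arrays do not overlap, but the change of -0.23 (95% interval -0.42 to -0.04) had an adjusted p of 0.0769. That p was 0.047 with median centring, 0.0173 with array weights and 0.0343 in a robust fit with a variance trend.

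The corona genes, whose products reach out to microtubules, fell in 4 of 4 cases, with a median of -1.25. CENPF, a very large outer protein, was at 7.84, 7.60 and 7.77 with progestin, against 9.48, 9.39 and 9.56 with vehicle (log2 change -1.74, SE 0.11, adjusted p = 1.37e-05). CENPE, the kinetochore kinesin, was at 6.30, 6.03 and 6.24 with progestin, against 7.58, 7.60 and 7.33 with vehicle (log2 change -1.31, SE 0.10, adjusted p = 4.04e-05). All progestin arrays lie below all vehicle arrays for both genes. KNTC1 and ZWILCH, subunits of the complex that brings dynein to kinetochores, fell by 1.18 and 0.99.

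All 3 genes of the Ska complex, which follows microtubule ends, were called lower. SKA1 was at 4.95, 4.70 and 4.22 with progestin, against 6.39, 6.40 and 6.19 with vehicle (log2 change -1.71, SE 0.18, adjusted p = 0.000206). SKA3 was at 6.42, 5.99 and 6.25 with progestin, against 7.95, 8.01 and 7.73 with vehicle (log2 change -1.68, SE 0.12, adjusted p = 2.8e-05). The progestin arrays of both spread more widely than the vehicle arrays without reaching them. SKA2 changed by -0.80, and by -0.74 on its second probe set.

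Of the checkpoint genes 4 of 5 fell. TTK, the kinase MPS1 that starts checkpoint signalling, was at 6.40, 6.25 and 6.32 with progestin, against 8.30, 8.37 and 8.33 with vehicle. It had the lowest change of the 40 members, a 4.03-fold fall (log2 change -2.01, SE 0.10, adjusted p = 3.08e-06). BUB1, a kinase that docks on KNL1, was at 7.85, 7.68 and 7.63 with progestin, against 9.54, 9.55 and 9.50 with vehicle (log2 change -1.81, SE 0.09, adjusted p = 3.08e-06). BUB1B, which encodes BUBR1, fell by 1.80, and MAD2L1, which encodes the CDC20-binding MAD2, by 1.65. BUB3, the partner of BUB1 and BUBR1, was at 10.00, 9.91 and 9.82 with progestin, against 10.01, 9.99 and 9.79 with vehicle. These arrays overlap, and its change was -0.02 (95% interval -0.23 to 0.19, adjusted p = 0.896), with the sign turned under quantile normalization.

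The passenger complex and shugoshin genes fell in 6 of 6 cases, with a median of -1.54. SGO1, which protects cohesin at sister centromeres, was at 6.60, 6.26 and 6.61 with progestin, against 8.37, 8.35 and 8.42 with vehicle (log2 change -1.89, SE 0.12, adjusted p = 1.05e-05). BIRC5, which encodes survivin, was at 7.96, 7.66 and 7.76 with progestin, against 9.57, 9.57 and 9.35 with vehicle (log2 change -1.70, SE 0.11, adjusted p = 1.48e-05), and changed by -1.27 on its second probe set. Both genes are well separated between the groups. AURKB, the kinase of the complex, fell by 1.42, CDCA8, which encodes borealin, by 1.37, and SGO2 by 1.65. The scaffold INCENP fell by 0.93 (95% interval -1.11 to -0.75), an interval that does not overlap that of AURKB (-1.61 to -1.24). It overlaps those of CDCA8 (-1.65 to -1.09) and of the second BIRC5 probe set (-1.61 to -0.92). It does not overlap that of the brighter BIRC5 probe set (-1.96 to -1.45). Differences between subunits were not tested.

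**Figure D2:**
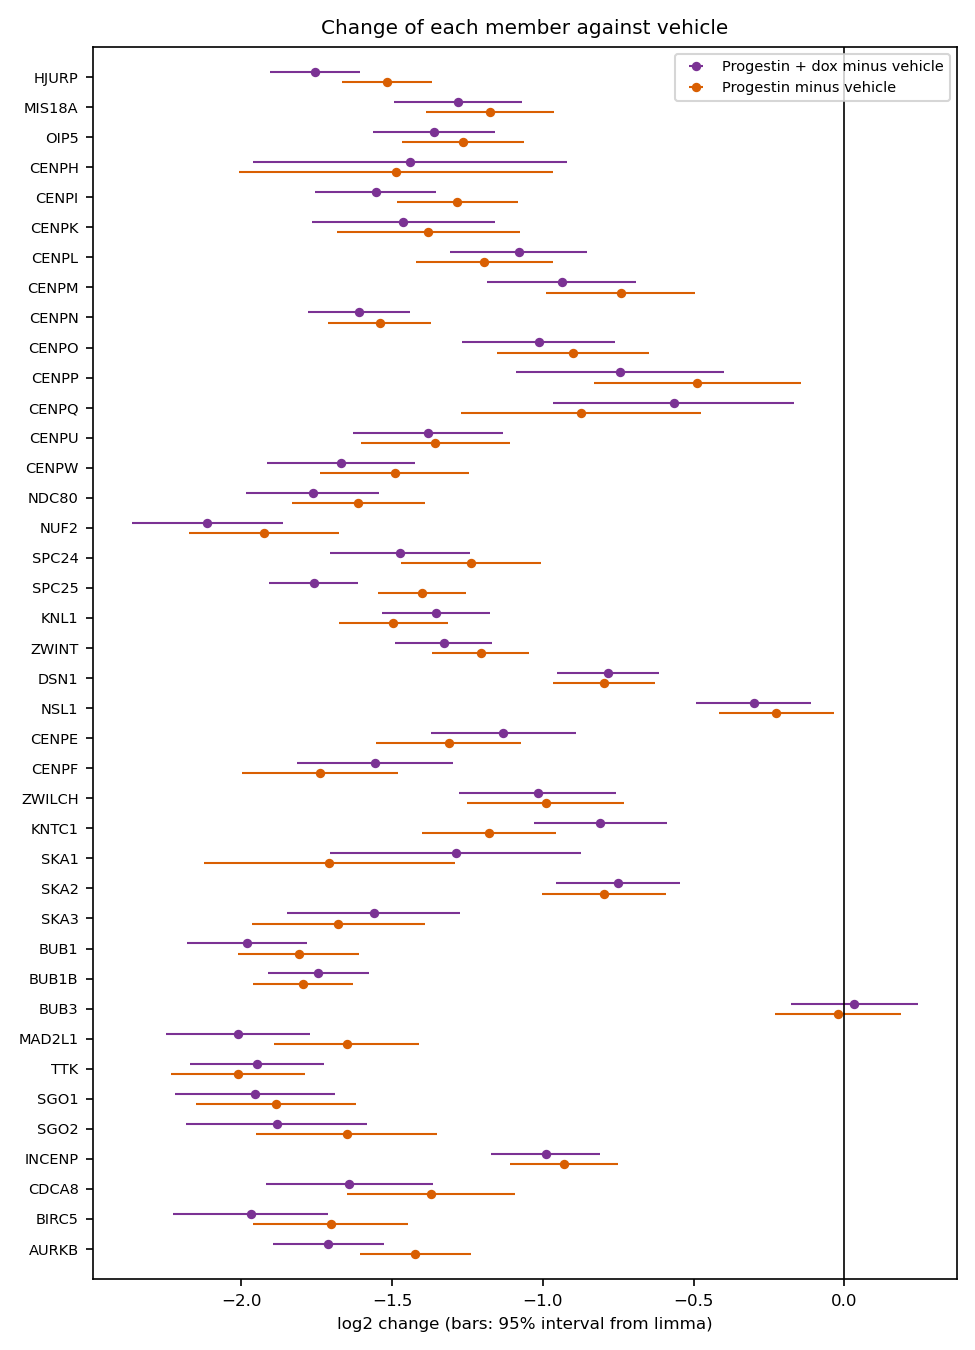
Log2 change of each member (rows, by role) against vehicle for progestin plus doxycycline (purple) and progestin (orange), with points for limma estimates and bars for 95% intervals. Progestin changes run from -2.01 for TTK to -0.02 for BUB3, and only the bars of BUB3 cross 0 in either comparison.

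Adding doxycycline to progestin asked how these transcripts stood with ELF5 lower than under progestin alone. By limma 0 of 40 members were called, where 0.0189% of probe sets were. In the robust fit with a variance trend 0 of 40 were called, where 0.245% of probe sets were lower and 2.25% higher. At an unadjusted p under 0.05, 7 members were lower and 2 higher, against 3.94% and 10.1% of probe sets. Changes were below 0 for 26 of 40, against 43.9% of probe sets, and the median was -0.08, beside 0.03. With 1 array left out the count below 0 lay between 23 and 30, and 7 of the 40 members changed sign in at least 1 such fit. The median was -0.046 without progestin replicate 1, -0.13 without progestin replicate 2, -0.12 without progestin plus doxycycline replicate 2 and -0.046 without progestin plus doxycycline replicate 3. The groups did not overlap for 9 members that were lower and 2 that were higher, against 6.43% and 14.8% of probe sets.

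SPC25 was at 6.98, 6.97 and 7.05 with doxycycline added, against 7.37, 7.33 and 7.37 with progestin alone. The arrays with doxycycline are all below those without, by more than the spread within either group (log2 change -0.36, SE 0.06, adjusted p = 0.12 in limma, 95% interval -0.51 to -0.21). Its adjusted p was 0.0485 in limma without the dimmest 25% of probe sets. HJURP was at 7.69, 7.60 and 7.58 with doxycycline added, against 7.89, 7.81 and 7.90 with progestin alone (log2 change -0.24, SE 0.07, adjusted p = 0.183 in limma). AURKB was at 7.49, 7.60 and 7.42 with doxycycline added, against 7.83, 7.69 and 7.87 with progestin alone (log2 change -0.29, SE 0.08, adjusted p = 0.184 in limma). Neither gene's groups overlap, but these gaps are small beside the difference from vehicle. The other members with an unadjusted p under 0.05 and a negative change were MAD2L1 (-0.36), CENPI (-0.27), BIRC5 (-0.27) and SPC24 (-0.24), and none passed adjustment.

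KNTC1 was at 7.42, 7.67 and 7.56 with doxycycline added, against 7.30, 7.04 and 7.20 with progestin alone, with no overlap (log2 change 0.37, SE 0.10, adjusted p = 0.171 in limma). SKA1 was at 5.11, 5.17 and 4.84 with doxycycline added, against 4.95, 4.70 and 4.22 with progestin alone, which overlap (log2 change 0.42, SE 0.18, adjusted p = 0.355 in limma). Its change was 0.22 without progestin replicate 3, and it is among the dimmest 25% of probe sets. These were the 2 members with an unadjusted p under 0.05 and a positive change. By role, 3 of 4 corona genes and 3 of 3 Ska genes had changes above 0, with medians of 0.18 and 0.12. The second SKA2 probe set changed by -0.01. Without progestin replicate 2, SKA2 changed by -0.02 and SKA3 by 0.005. All 6 passenger complex and shugoshin genes had changes below 0, with a median of -0.25. The KMN network had 6 of 8 below 0 and the centromere network 8 of 11. Genes that load CENP-A had 3 of 3 below 0, with a median of -0.11. Checkpoint genes were mixed, with 2 of 5 below 0 and a median of 0.05. Differences between roles were not tested.

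**Figure D3:**
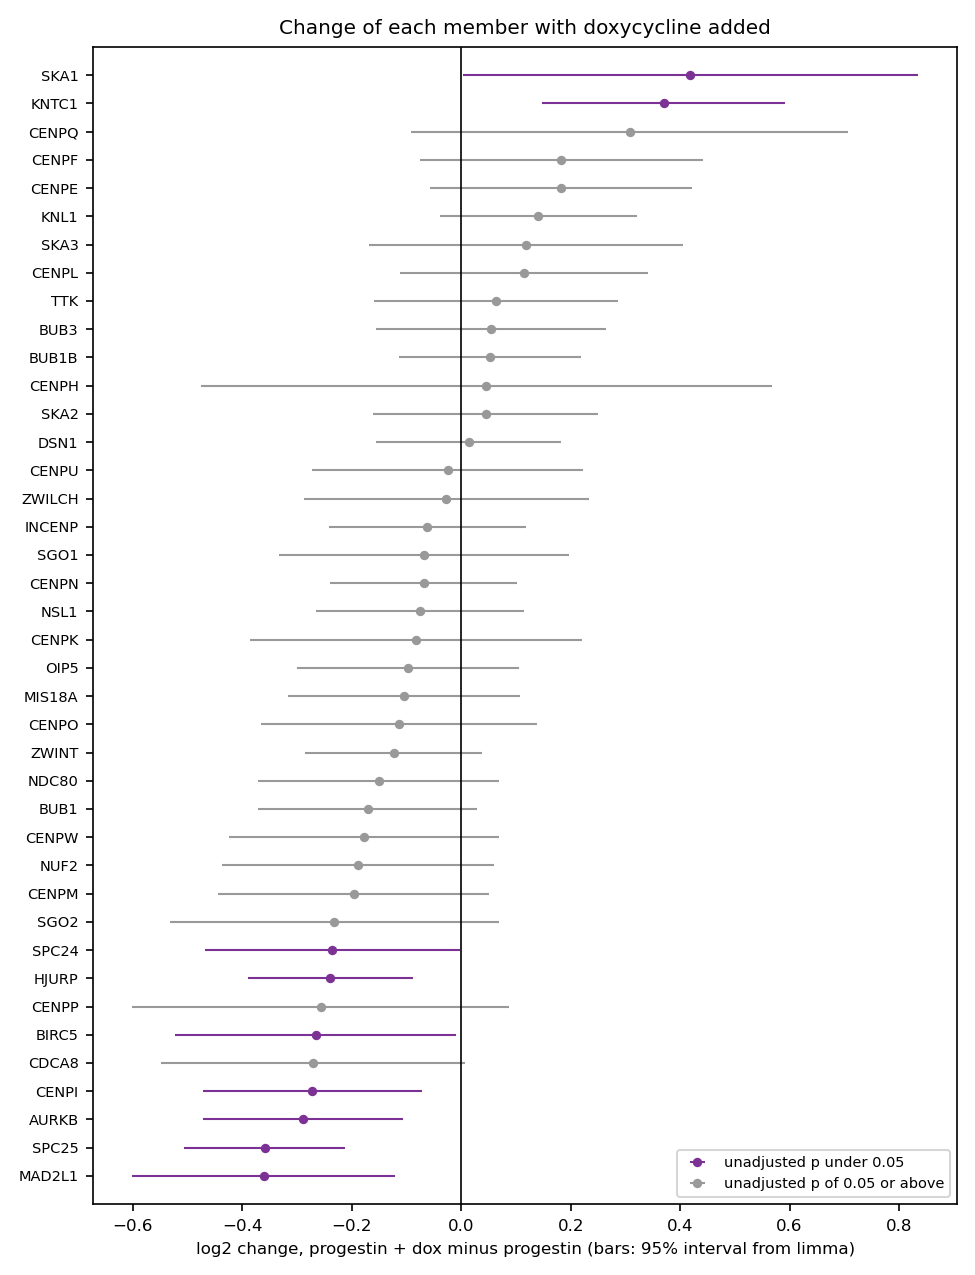
Log2 change of each member between progestin plus doxycycline and progestin, in order of size, with 95% intervals from limma and purple for an unadjusted p under 0.05. Changes run from -0.36 for MAD2L1 to 0.42 for SKA1, and 31 of the 40 intervals include 0.

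Progestin plus doxycycline against vehicle shares the vehicle arrays with the progestin comparison, so its values are set beside those above. Of the 40 members 39 were called lower and 0 higher, where 12.5% of probe sets were called lower and 15.6% higher. At least a 2-fold fall was called for 31, against 2.57% of probe sets. The groups did not overlap for 39, all lower, against 18.4% of probe sets. The median was -1.45, beside 0.02 over all probe sets.

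NUF2 was at 7.41, 7.58 and 7.43 in progestin plus doxycycline, against 9.58, 9.59 and 9.59 in vehicle, a change of -2.11 beside -1.92 with progestin alone. TTK was at 6.23, 6.58 and 6.36 in progestin plus doxycycline, against 8.30, 8.37 and 8.33 in vehicle, a change of -1.95 beside -2.01. Both genes stay far from vehicle. SPC25 changed by -1.76 with doxycycline beside -1.40 without, MAD2L1 by -2.01 beside -1.65, and KNTC1 by -0.81 beside -1.18. NSL1, at 8.88, 9.02 and 8.74 with doxycycline, was called here (log2 change -0.30, SE 0.08, adjusted p = 0.027), but not in the fits lacking vehicle replicate 1 or 2 or progestin plus doxycycline replicate 1 or 3 (adjusted p as high as 0.0857). CENPQ (log2 change -0.57, SE 0.17, adjusted p = 0.0421) lost its call in the fits lacking replicate 1 or 2 of vehicle, 1 or 2 of progestin, or 1 or 3 of progestin plus doxycycline (adjusted p as high as 0.132). BUB3 was at 9.91, 10.07 and 9.92 with doxycycline, overlapping vehicle, with a change of 0.03 (95% interval -0.18 to 0.24) whose sign turned with median centring.

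**Figure D4:**
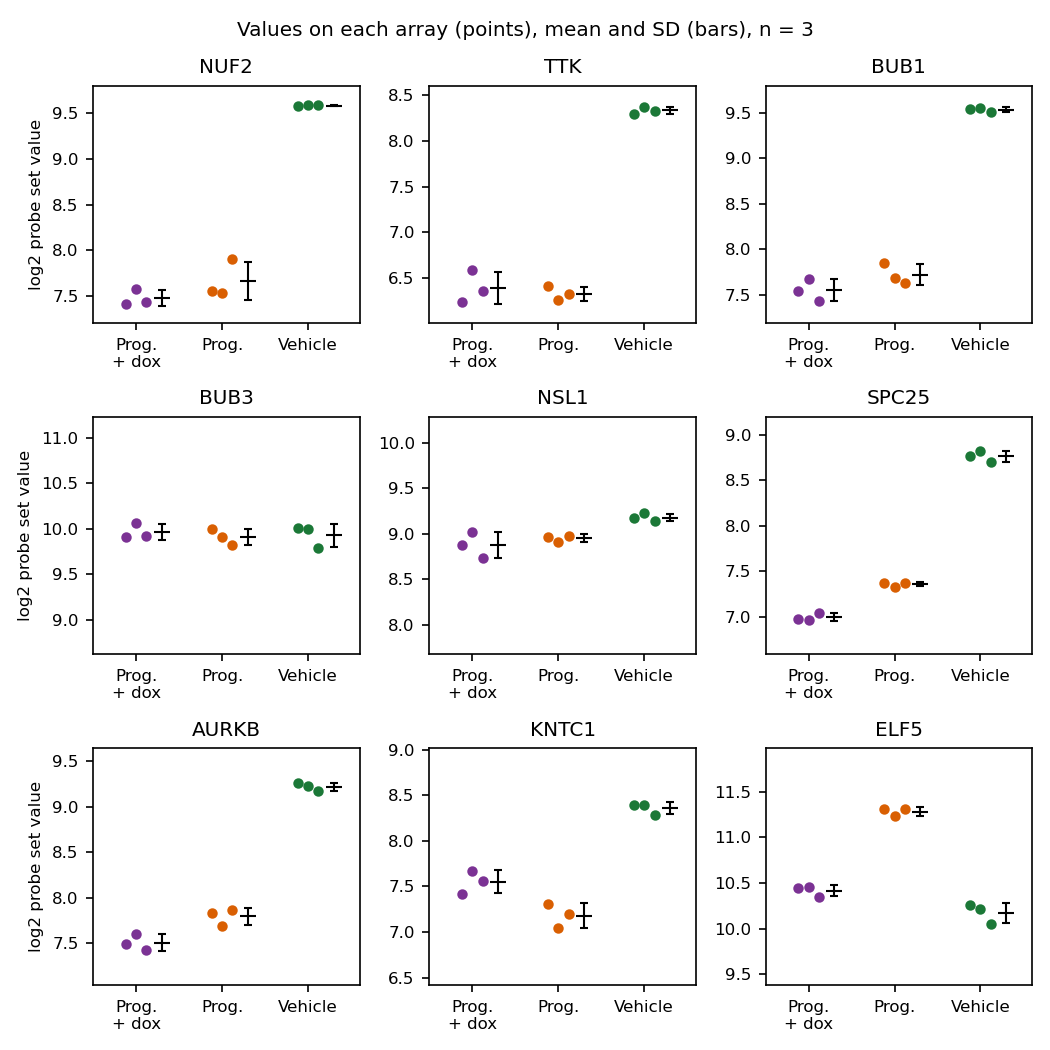
Log2 values of 8 members and ELF5 on each array (points) with mean and SD (bars, n = 3) in progestin plus doxycycline, progestin and vehicle, with the same axis span in every panel. Both progestin groups of NUF2, TTK, BUB1, SPC25, AURKB and KNTC1 lie below vehicle, BUB3 overlaps in all groups, and ELF5 is highest with progestin alone.

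A further 30 kinetochore genes were listed, of which 26 were measured. With progestin 12 were called lower and 1 higher, against 15.6% and 13.4% of probe sets. The median was -0.26, beside -1.38 for the members. CDC20, the activator that the checkpoint restrains, was at 8.51, 8.38 and 8.19 with progestin, against 10.28, 10.15 and 10.22 with vehicle (log2 change -1.86, SE 0.10, adjusted p = 4.65e-06). PLK1, a mitotic kinase, and TRIP13, an ATPase that remodels MAD2, also fell, with log2 changes of -1.52 and -1.51. MAD2L1BP, which helps to silence the checkpoint, was the 1 that rose (log2 change 0.36, SE 0.11, adjusted p = 0.0412). SPDL1 (-1.42) and HASPIN (-1.27) were among the others called lower. CENPB (-0.22), CENPC (0.05), CENPT (-0.27), MIS12 (-0.25), ZW10 (-0.11) and MAD1L1 (-0.10), partners of members that fell, were not called. For CENPB, CENPT and MIS12 all progestin arrays lay below all vehicle arrays (adjusted p = 0.0559, 0.0858 and 0.0634 in limma). With doxycycline added 0 of the 26 were called by limma. At an unadjusted p under 0.05, 2 were lower and 4 higher, against 3.94% and 10.1% of probe sets. In the robust fit 2 were called lower, against 0.245% of probe sets.

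Mitotic kinesins and MCM helicase genes, which act in mitosis and in replication, had medians near that of the members. All 12 kinesins fell with progestin, with a median of -1.51 (-2.11 to -1.10), and all 7 MCM genes, with a median of -1.28 (-1.67 to -0.98). Of all probe sets, 15.6% were called lower there. With doxycycline added limma called 0 of either list. At an unadjusted p under 0.05, 3 kinesins and 0 MCM genes were lower, against 3.94% of probe sets. The robust fit called 1 kinesin lower, against 0.245% of probe sets, and the list medians were -0.13 and -0.04. Differences between the lists were not tested.

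**Figure D5:**
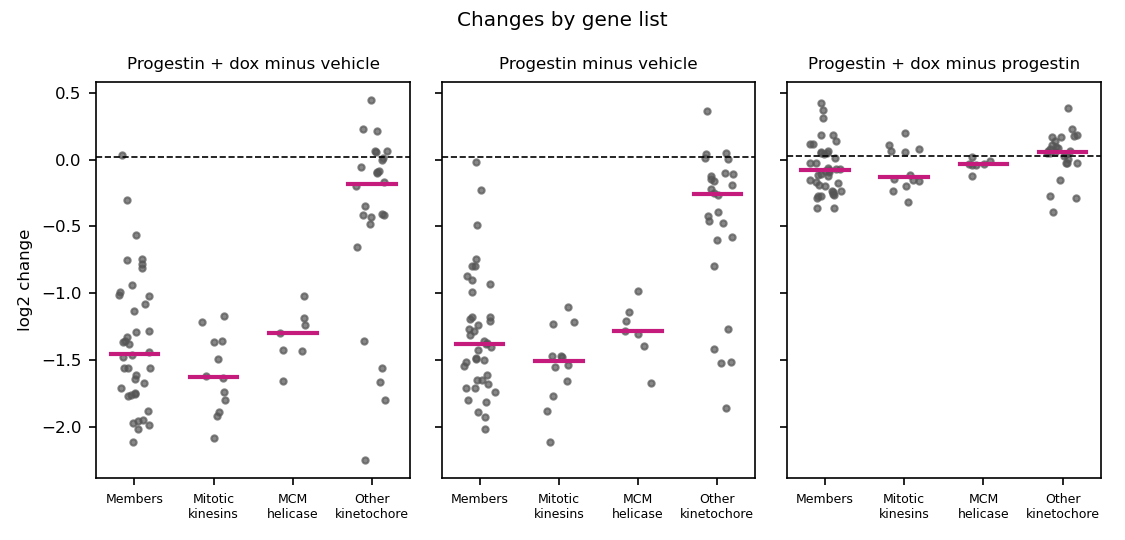
Log2 changes of single genes (points) and list medians (bars) for the members and 3 other lists, in progestin plus doxycycline against vehicle, progestin against vehicle, and progestin plus doxycycline against progestin, with a dashed line at the median of all probe sets. Against vehicle the medians of members, kinesins and MCM genes lie between -1.63 and -1.28, and those of the other kinetochore genes at -0.18 and -0.26.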

How the data were processed

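The authors deposited 1 log2 value per probe set and array, a scale read from the values. Per the submitters' processing notes the tools were PLIER, limma, Affymetrix Expression Console and Affymetrix Power Tools, with no role or version, and the sources used here give no normalization. Probe sets were named from the platform annotation. All 21214 with a symbol were fitted in limma 3.58.1 (R 4.3.3) with 1 mean per group over 9 arrays, eBayes and Benjamini-Hochberg adjustment. The procedure was tried on simulated data with independent noise and changes only in brighter probe sets. That trial does not cover dim genes or changes as small as those with doxycycline added. Precision is limited by the number of arrays, and p-values reflect only the spread among the arrays of each group. Members, lists and tests were chosen with earlier results of these data known. Values on every array are given for the 2 largest called changes per role with progestin, members not called there, the 4 smallest p with doxycycline, and ELF5. Of the other kinetochore genes, the 3 lowest and up to 3 highest called changes are named, and further genes were named after their values were seen. Replicate numbers were not used to pair the arrays: 1 of 9 same-numbered pairs had correlated deviations over 0.1 (-0.15 to 0.20). Over probe sets brighter than the median, the correlation was 0.48 and 0.46 for vehicle with progestin plus doxycycline, replicates 2 and 3. For the other same-numbered pairs it was -0.26 to 0.11. Pairing is thus not settled, and a fit with a replicate block is given below.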

Additional observations from a re-analysis of the deposited data

How the results depend on the processing

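The alternatives were each array left out, quantile normalization, median centring, dropping the dimmest 25% of probe sets, a robust fit with a variance trend, array weights, 16 added to the linear values, only the 2 groups compared, a replicate block and another choice of probe set. Members called in progestin against vehicle numbered 37 to 38 with an array left out and 36 to 39 otherwise, with leave-one-out medians of -1.43 to -1.27. The 36 came without the dimmest 25% of probe sets, where 38 members were tested and CENPQ and SKA1 were not. In progestin plus doxycycline against vehicle they numbered 37 to 39. With doxycycline added 0 were called in every fit, except 1 (SPC25) without the dimmest 25% of probe sets, where fewer probe sets are tested. With the replicate block 37 were called in progestin against vehicle (not CENPP), 0 with doxycycline added and 37 in progestin plus doxycycline against vehicle (not CENPQ or NSL1).

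Over all probe sets, 4 were called with doxycycline added, but 158 without the dimmest 25%, 530 in the robust fit, 15 with 16 added, 8 with array weights, 0 with only the 2 groups or the block, and 0 to 2 with an array left out. In progestin against vehicle 6161 were called, and 9502 with array weights.

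Among the named members signs turned for BUB3 and TTK, and the cause was not tested. BUB3 in progestin against vehicle was 0.0323 with quantile normalization and -0.0923 to 0.0253 with an array left out. With doxycycline added, BUB3 was -0.0045 with quantile normalization and -0.0088 with array weights, and TTK was -0.0283 with array weights and -0.0314 to 0.1428 with an array left out. In progestin plus doxycycline against vehicle, BUB3 was -0.0288 with median centring, -0.0634 with array weights and -0.0384 to 0.0738 with an array left out. Of the other members, CENPH, CENPK, CENPU, DSN1, ZWILCH and SKA2 also turned sign with doxycycline added when an array was left out, CENPH to -0.2215 without progestin replicate 2. The median with doxycycline added lay between -0.13 and -0.05 with an array left out.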
